A study of Mus musculus with 9 samples.

Results

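The 35 genes described here encode enzymes and carriers that burn or divert the carbon of pyruvate and glucose: the TCA cycle, the pyruvate dehydrogenase complex with its kinases and phosphatases, the mitochondrial pyruvate carrier, lactate dehydrogenase A and the pentose phosphate pathway. They were chosen by symbol for these functions. All 35 were found among the 55401 genes of the count table, and all 35 were among the 12660 genes with enough counts to be tested. They were measured in total RNA of the liver's left lobe from male mice, with 3 libraries in each of 3 groups, by a kit that reads the 3' ends of polyadenylated transcripts. Chow mice (libraries 7, 8 and 9) ate a chow diet and had neither streptozotocin nor Atglistatin. STAM mice (libraries 1, 2 and 3), which model fatty liver disease in diabetes, had 200 µg of streptozotocin, a toxin of insulin-producing beta cells, under the skin at 2 days of age. They then ate a high-fat diet (HFD) from 4 weeks of age for another 4 weeks. STAM + Atglistatin mice (libraries 4, 5 and 6, called treated from here on) had the same injection, and their HFD contained Atglistatin, an inhibitor of adipose triglyceride lipase (ATGL). These treatments are those of the sample titles and the design text, which the treatment tags of the chow and STAM samples contradict. Streptozotocin and HFD were always given together, so their parts in any difference from chow cannot be told apart. The strain and the dose of Atglistatin were not given in the sources used here, and p-values measure only the spread between these libraries.

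In the liver, pyruvate enters mitochondria through the carrier formed by Mpc1 and Mpc2, and the pyruvate dehydrogenase complex turns it into acetyl-CoA. Citrate synthase joins acetyl-CoA to oxaloacetate, and the cycle oxidises the citrate or releases it for fatty acid and sterol synthesis. Kinases switch the pyruvate dehydrogenase complex off and phosphatases switch it on, as hepatocytes shift between carbohydrate and fat. The oxidative arm of the pentose phosphate pathway (G6pdx, Pgls, Pgd) makes NADPH for lipid synthesis and antioxidant defence, and the non-oxidative arm (Tkt, Taldo1, Rpia, Rpe) exchanges sugars with glycolysis.

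Levels are counts per 1e6 (CPM) with TMM scaling, given by library or as mean ± SD of n = 3. Differences are log2 fold changes with their SE, by the quasi-likelihood test of edgeR, and a gene passed at a Benjamini-Hochberg adjusted p under 0.05 over all 12660 genes. Library totals were 7380365 to 9886129 counts. The members were deeply counted: their median level was 103 CPM, against 13.4 CPM for all tested genes, and 31 of 35 had at least 100 counts in every library. Chow library 7 differed more from the other chow libraries (chi-square per degree of freedom of 21.1 and 21.2) than those did from each other (9.23), and its 6 proliferation markers summed to 77.0 CPM against 8.20 and 13.9. The 7 hepatocyte markers, all detected, summed to 86614 to 97784 CPM in chow, 46097 to 53784 in STAM and 68516 to 69270 in treated livers. Of these 7, 3 were lower in STAM than in chow, 5 were lower in treated livers than in chow, and 1 was higher and 1 lower in treated livers than in STAM. Fewer cells of a type and less RNA per cell cannot be told apart in such bulk samples. The 14 macrophage markers, all detected, summed to 499 to 733 CPM in chow, 575 to 681 in STAM and 550 to 773 in treated livers, and none passed the test. Mitochondrially encoded transcripts took 7.32 to 8.78% of counts in chow, 11.0 to 11.6% in STAM and 8.64 to 9.73% in treated livers. The part of these shifts in the results on the 35 genes was not tested.

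Most of the 35 genes did not pass in any comparison, and those that did moved by less than a doubling. In STAM livers against chow, citrate synthase (Cs) and Dlat, the E2 subunit of pyruvate dehydrogenase, fell, while the mitochondrial isocitrate dehydrogenase Idh2 and the kinase Pdk2 rose. With Atglistatin, 2 pentose phosphate genes, Pgd and Tkt, rose above their STAM level. Treated livers had higher levels than chow of the mitochondrial malate dehydrogenase Mdh2, the E1 alpha subunit Pdha1 and the pyruvate carrier subunit Mpc2. The comparisons share groups, so these calls are not independent of one another.

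In STAM against chow, 4 of the 35 members passed, a share of 11.4%, where 3.94% of all tested genes passed. By direction, 2 members rose, where 1.95% of all genes did, and 2 fell, where 1.99% did. Scaled by library totals, this split was 5 to 1, and that of all genes moved from 247 higher and 252 lower to 347 and 205. Treated livers against STAM had 2 members that rose (5.71%), where 1.04% of all tested genes rose and 1.79% passed in either direction. No member fell there, by edgeR, DESeq2 or limma-voom or at an unadjusted p under 0.05. Of all genes, 0.742% fell at an edgeR adjusted p under 0.05. Treated livers against chow had 3 that rose (8.57%), where 2.1% of all tested genes rose and 4.08% passed in either direction. None fell by any of these criteria, and 1.97% of all genes fell at an edgeR adjusted p under 0.05. Without chow library 7, 2 members rose and 3 fell in STAM against chow, and 2 rose in treated livers against chow. The shares rest on 2 to 4 genes each, and the members have more counts than most genes. For the counts at an unadjusted p under 0.05 given below, the share of all genes was not computed, so they have no reference.

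The 3 libraries of one group lay wholly above or below those of the other for 13 members in STAM against chow (8 higher and 5 lower), which is 37.1%, where 20.7% of all tested genes did so (10.6% higher and 10.2% lower). For treated livers against STAM the number was 9 (7 higher and 2 lower), 25.7%, where 17% of all genes did so (8.58% higher and 8.45% lower). For treated livers against chow it was 8, all of them higher, 22.9%, where 18.6% of all genes did so (9.6% higher and 9.03% lower). The median log2 fold change of the members was 0.03, 0.12 and 0.15 in these 3 comparisons, and that of all tested genes was -0.00 in each. The members' SE had a median of 0.15, and ran from 0.11 to 0.92.

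**Figure D1:**
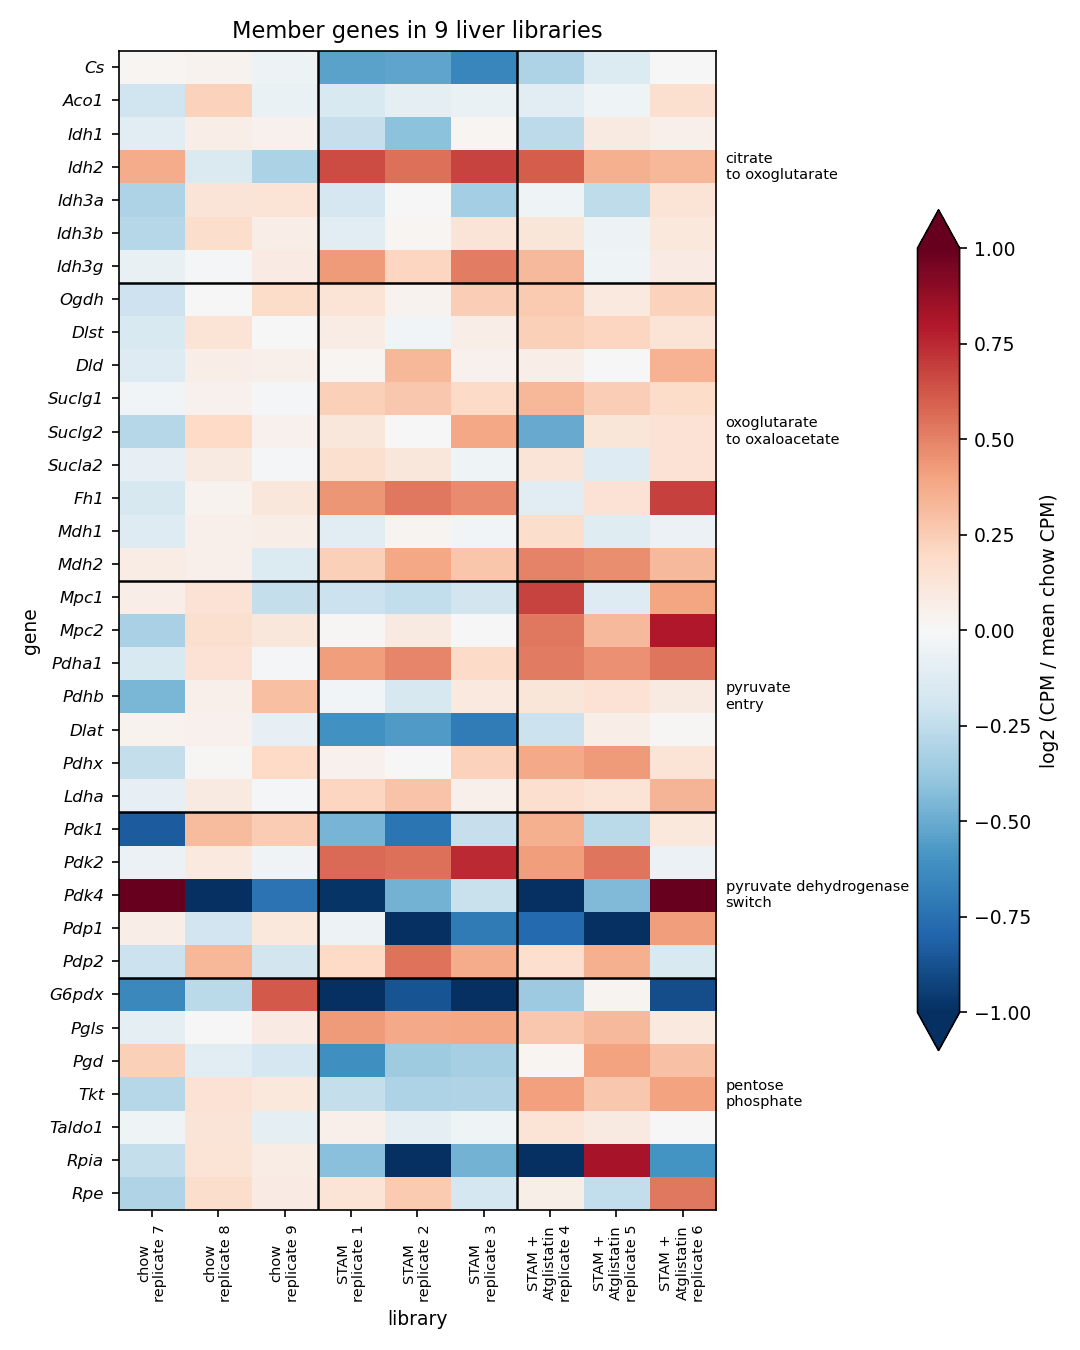
Level of each of the 35 genes (rows, grouped by step of metabolism) in each of the 9 libraries (columns), as the log2 ratio of its CPM to the mean of the 3 chow libraries, with colours ending at 1 in either direction. Cs and Dlat are low in the 3 STAM libraries, Idh2 and Pdk2 are high there, and Tkt and Mpc2 are high in the 3 treated libraries.

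**Figure D2:**
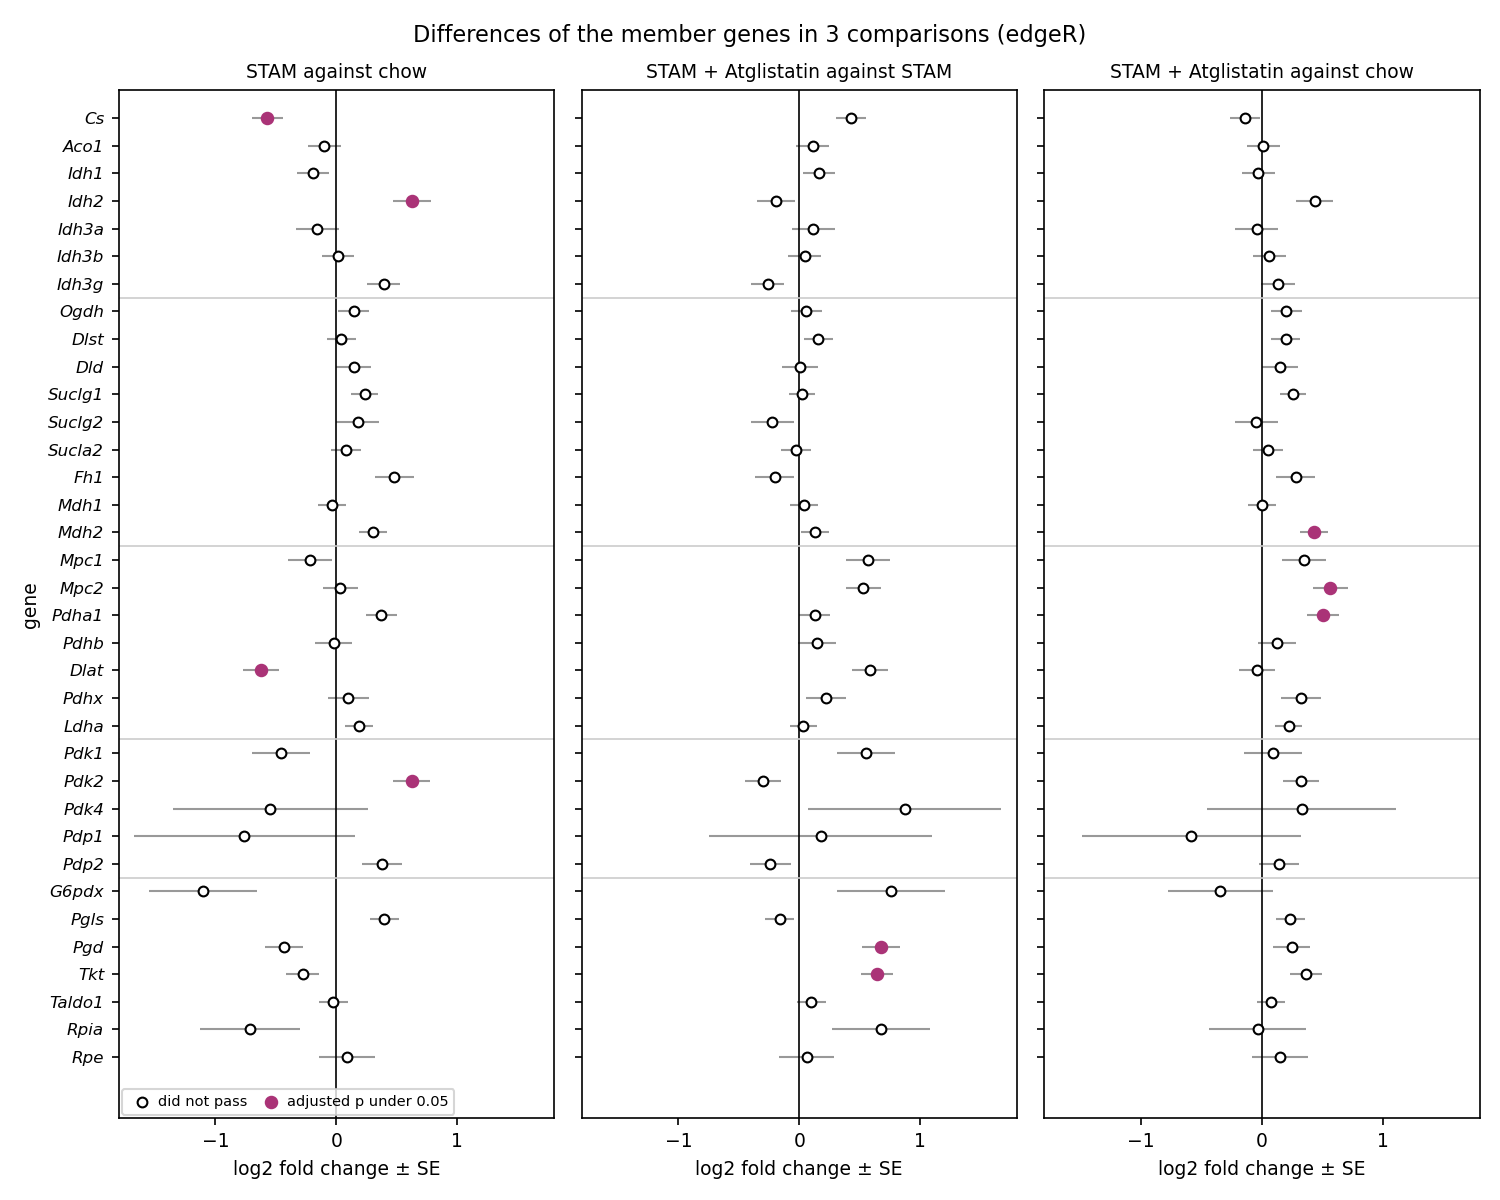
Log2 fold change of each gene in the 3 comparisons, with bars of 1 SE from edgeR. Filled points passed at an adjusted p under 0.05: 4 in STAM against chow, 2 in treated livers against STAM and 3 in treated livers against chow. The widest bars belong to Pdk4 and Pdp1, which have few counts.

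Promoter windows are shown for Cs and Dlat, which fell in STAM against chow, and for Pdk2, which rose there. They are also shown for Pgd and Tkt, which rose in treated livers against STAM, and for G6pdx, which opens the oxidative arm. Each is the 250 bases before the gene's start in RefSeq (build GRCm38.p6), printed 5′ to 3′ on the gene's own strand and ending at the base before the start. The GENCODE annotation places some of these starts further upstream. By its positions, the windows of Tkt and G6pdx lie inside the gene, and that of Pgd lies partly inside. RefSeq's table held a window for 33 of the 35 members, and Pgd and Pdk2 have 2 starts each, of which the upstream one is shown. Capitals mark a match to a searched motif. The windows are Cs at chr10:128337477-128337726, plus strand, Dlat at chr9:50659781-50660030, minus strand, Pgd at chr4:149166706-149166955, minus strand, Tkt at chr14:30548881-30549130, plus strand, Pdk2 at chr11:95041372-95041621, minus strand, and G6pdx at chrX:74428881-74429130, minus strand.
Cs: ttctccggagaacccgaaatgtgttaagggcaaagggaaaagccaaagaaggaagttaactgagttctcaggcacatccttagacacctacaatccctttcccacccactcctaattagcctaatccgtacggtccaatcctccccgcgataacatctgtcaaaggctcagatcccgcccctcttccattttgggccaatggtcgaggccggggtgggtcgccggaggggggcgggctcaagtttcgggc
Dlat: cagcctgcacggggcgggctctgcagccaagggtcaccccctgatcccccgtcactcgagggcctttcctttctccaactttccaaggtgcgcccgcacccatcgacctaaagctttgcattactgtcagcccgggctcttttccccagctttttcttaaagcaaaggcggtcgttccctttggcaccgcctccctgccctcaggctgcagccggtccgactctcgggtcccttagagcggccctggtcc
Pgd: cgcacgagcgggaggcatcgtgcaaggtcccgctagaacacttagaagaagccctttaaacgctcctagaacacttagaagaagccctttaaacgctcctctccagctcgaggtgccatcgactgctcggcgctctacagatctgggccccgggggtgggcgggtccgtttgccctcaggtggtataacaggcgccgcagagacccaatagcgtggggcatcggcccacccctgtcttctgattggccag
Tkt: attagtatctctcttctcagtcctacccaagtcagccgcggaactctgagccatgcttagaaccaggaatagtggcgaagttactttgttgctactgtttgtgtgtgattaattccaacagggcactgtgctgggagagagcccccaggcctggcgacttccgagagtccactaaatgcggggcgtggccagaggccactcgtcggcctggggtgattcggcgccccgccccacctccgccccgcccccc
Pdk2: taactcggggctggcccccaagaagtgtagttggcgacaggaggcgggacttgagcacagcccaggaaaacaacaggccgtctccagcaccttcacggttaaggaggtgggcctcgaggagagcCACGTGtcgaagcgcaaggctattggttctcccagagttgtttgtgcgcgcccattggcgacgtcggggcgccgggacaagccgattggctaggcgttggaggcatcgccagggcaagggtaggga
G6pdx: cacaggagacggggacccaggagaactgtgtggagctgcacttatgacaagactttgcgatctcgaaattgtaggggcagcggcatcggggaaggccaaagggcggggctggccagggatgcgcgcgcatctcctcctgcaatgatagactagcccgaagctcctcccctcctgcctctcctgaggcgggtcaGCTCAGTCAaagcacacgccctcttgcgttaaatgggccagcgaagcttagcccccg

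Both strands of these windows were searched for 6 motifs. The members have 44 windows, since some have several starts, and some of those of Ogdh overlap and hold the same site. Ogdh is thus counted more than once among the member windows with the E-box or the hypoxia response core. The E-box CACGTG, capitalised in Pdk2 from base 126 to base 121 before the start, was found in 4 members (Ldha, Ogdh, Pdk2 and Pdp2). It was in 6 of the 44 member windows and in 6.02% of all 32851 windows. The antioxidant response element core TGACNNNGC, capitalised in G6pdx on the opposite strand from base 57 to base 49, was found in 5 members (Dlst, G6pdx, Idh3g, Mpc1 and Sucla2). It was in 5 of the 44 member windows and in 10.2% of all windows. The hypoxia response core ACGTG, which lies inside every CACGTG, was found in 7 members (Idh3g, Ldha, Mdh1, Ogdh, Pdhb, Pdk2 and Pdp2). It was in 12 of the 44 member windows and in 16.6% of all windows. No member window held the sterol regulatory element (0.0731% of all windows), its relaxed form TCACNCCAC (1.05%) or the direct repeat bound by PPARa with RXR (0.0335%). Cs, Dlat, Pgd and Tkt had none of the 6 in the windows printed. A match is a description of the letters and was not tested as a site.

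The first steps of the cycle make citrate and turn it into oxoglutarate. Cs, citrate synthase (chromosome 10, 128337734 to 128362479, plus strand, GRCm38), stood at 108, 109 and 102 CPM in the chow libraries, 73.3, 73.6 and 67.8 in STAM and 85.8, 96.8 and 106 in treated livers. Every STAM library was below every other library, and the treated libraries ran from under the chow range into it. Means were 106 ± 3.45 in chow, 71.6 ± 3.27 in STAM and 96.2 ± 10.2 in treated livers, and Cs fell by 32.7% in STAM against chow (log2 fold change -0.57 ± 0.13, edgeR adjusted p = 0.0126). This call was lost without chow library 8 or STAM library 1 or 3 (edgeR adjusted p = 0.0533 to 0.0657), in a range of 0.00101 to 0.0657 over 12 alternatives. A small nucleolar RNA gene, Gm23182, lies inside Cs on the same strand.

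Idh2, the mitochondrial NADP-dependent isocitrate dehydrogenase (chromosome 7, 80094846 to 80115392, minus strand), moved the other way. Its levels were 140.0, 98.1 and 87.3 CPM in chow, 171, 159 and 174 in STAM and 165, 139 and 137 in treated livers. The STAM libraries lay above all chow libraries, of which library 7 was the highest by far, and the treated libraries overlapped with both groups. Idh2 rose 1.54-fold in STAM against chow (log2 fold change 0.63 ± 0.16, edgeR adjusted p = 0.0284). The call was lost without chow library 8 or 9 or STAM library 1 or 2 or 3 (edgeR adjusted p = 0.0692 to 0.153), in a range of 0.000325 to 0.153 over 12 alternatives. Without chow library 7 the log2 fold change was 0.85. The log2 fold change of treated livers against chow was 0.43 ± 0.16 (edgeR adjusted p = 0.165), which passed without chow library 7 (0.66, edgeR adjusted p = 0.00392, range over 12 alternatives 0.00392 to 0.505). Gm45203, an unverified transcript on the same strand, overlaps Idh2.

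Idh3a, a catalytic subunit of the NAD-dependent isocitrate dehydrogenase of the cycle, stood at 27.4, 37.0 and 37.1 CPM in chow, 30.1, 33.9 and 26.7 in STAM and 32.8, 28.3 and 37.2 in treated livers, with the 3 groups overlapping. Its partner Idh3g ran from 58.6 to 65.2 CPM in chow, 71.7 to 87.6 in STAM and 59.9 to 77.0 in treated livers, so that STAM and chow did not overlap, but it did not pass. Idh3b, another subunit of the NAD-dependent isocitrate dehydrogenase, overlapped between all groups. So did the cytosolic enzymes Aco1, an aconitase, and Idh1, an isocitrate dehydrogenase that makes NADPH. Of these 7 genes 1 rose and 1 fell in STAM against chow, with log2 fold changes from -0.57 to 0.63. None passed in treated livers against STAM, by edgeR, DESeq2 or limma-voom, and 1 was higher at an unadjusted p under 0.05. With chow as the reference for treated livers, none passed by edgeR or DESeq2, Idh2 passed by limma-voom, and 1 was higher at an unadjusted p under 0.05.

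Grouped with the second stretch of the cycle, from oxoglutarate to oxaloacetate, are 9 members, cytosolic Mdh1 among them. Mdh2, the mitochondrial malate dehydrogenase that regenerates oxaloacetate (chromosome 5, 135778480 to 135790398, plus strand), stood at 275, 269.7 and 237 CPM in chow, 308, 340.2 and 315 in STAM and 367, 360.4 and 327 in treated livers. Both groups of STAM mice lay wholly above chow and overlapped with each other. Mdh2 was 1.35-fold higher in treated livers than in chow (log2 fold change 0.43 ± 0.11, edgeR adjusted p = 0.0406). It no longer passed without chow library 8 or 9 or treated library 4 or 5 (edgeR adjusted p = 0.0959 to 0.211), and in a fit to the 2 groups alone (0.0886), in a range of 0.00475 to 0.211 over 12 alternatives.

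Fh1, fumarate hydratase (chromosome 1, 175600374 to 175625635, minus strand), stood at 214, 245 and 258 CPM in chow, 324, 344 and 331 in STAM and 221, 264 and 384 in treated livers. The STAM libraries were close together and above all chow libraries, and the treated libraries spread over the range of both. Its log2 fold change in STAM against chow was 0.48 ± 0.16 (edgeR adjusted p = 0.127). It passed under 4 of 12 alternatives, namely library totals, no low-count filter, limma-voom and a fit to the 2 groups alone, and the adjusted p ran from 0.0138 to 0.311 over all 12. Kmo overlaps Fh1 on the other strand.

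Ogdh, the E1 subunit of oxoglutarate dehydrogenase, stood at 107, 124 and 140.2 CPM in chow, 136, 127 and 147 in STAM and 149, 132 and 145 in treated livers, and the groups overlapped. Suclg1, the alpha subunit of succinyl-CoA ligase, ran from 293 to 308 CPM in chow, 342 to 359.7 in STAM and 339.6 to 377 in treated livers, so that both groups of STAM mice lay above chow without passing. Over the 9 genes (also Dlst and Dld, the other subunits of oxoglutarate dehydrogenase, the ligase subunits Suclg2 and Sucla2, and cytosolic Mdh1), log2 fold changes in STAM against chow ran from -0.04 to 0.48 with a median of 0.14. None of the 9 passed there by edgeR or DESeq2, Fh1 passed by limma-voom, and 3 were higher at an unadjusted p under 0.05. For treated livers against STAM, log2 fold changes ran from -0.22 to 0.16, and none passed by any of the 3 tools or at an unadjusted p under 0.05.

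Pyruvate entry had 1 gene that fell in STAM and 2 that were higher in treated livers than in chow. Dlat, the E2 subunit of pyruvate dehydrogenase that passes the acetyl group to coenzyme A (chromosome 9, 50634633 to 50659780, minus strand), stood at 43.9, 44.4 and 40.6 CPM in chow, 28.2, 29.05 and 26.4 in STAM and 37.0, 45.1 and 43.4 in treated livers. The STAM libraries were below all 6 others, and the treated libraries overlapped with chow. Dlat fell by 35.1% in STAM against chow (log2 fold change -0.62 ± 0.15, edgeR adjusted p = 0.0223). The adjusted p rose past 0.05 without chow library 8 or STAM library 1 or 2 or 3 (edgeR adjusted p = 0.0644 to 0.0949), and when scaled by library totals (0.0707), in a range of 0.00610 to 0.0949 over 12 alternatives. Its log2 fold change in treated livers against STAM was 0.58 ± 0.15 (edgeR adjusted p = 0.0577), which passed by DESeq2 and limma-voom but not under the other 10 alternatives (adjusted p of 0.0223 to 0.220 over 12).

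Pdha1, the E1 alpha subunit that the kinases phosphorylate (chromosome X, 160122209 to 160138413, minus strand), stood at 79.9, 98.5 and 88.2 CPM in chow, 119, 125 and 101 in STAM and 127, 122 and 129 in treated livers. Both groups of STAM mice lay above all chow libraries and overlapped with each other. It was 1.42-fold higher in treated livers than in chow (log2 fold change 0.50 ± 0.13, edgeR adjusted p = 0.0332), while in STAM against chow the log2 fold change was 0.37 ± 0.13 (edgeR adjusted p = 0.145) and passed only with library totals. The call against chow was lost without chow library 7 or 9 or treated library 4 or 5 or 6 (edgeR adjusted p = 0.0758 to 0.120), and in a fit to the 2 groups alone (0.0595), in a range of 0.00664 to 0.120 over 12 alternatives. Map3k15 overlaps Pdha1 on the other strand and the counting was not stated to use strand. Pdhb (E1 beta), Pdhx (the E3-binding protein) and Dld, the E3 subunit shared with oxoglutarate dehydrogenase, also belong to the complex. Each overlapped between chow and STAM.

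Mpc2, which with Mpc1 forms the carrier that brings pyruvate into the mitochondrion (chromosome 1, 165460637 to 165481214, plus strand), stood at 273, 384 and 372 CPM in chow, 345, 364 and 343 in STAM and 493, 430.3 and 596 in treated livers. The treated libraries were above all 6 others. Mpc2 was 1.48-fold higher in treated livers than in chow (log2 fold change 0.56 ± 0.14, edgeR adjusted p = 0.0327). Passing was lost without chow library 7 or 9 or treated library 4 or 6 (edgeR adjusted p = 0.0587 to 0.146), and in a fit to the 2 groups alone (0.0819), in a range of 0.00128 to 0.146 over 12 alternatives. Against STAM its log2 fold change was 0.53 ± 0.14 (edgeR adjusted p = 0.0864), which passed under 4 of 12 alternatives (no low-count filter, DESeq2, limma-voom and the 2 groups alone, range 0.00572 to 0.318). Gm37860, an unverified transcript, overlaps Mpc2 on the same strand.

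Mpc1, the other carrier subunit, stood at 45.7, 48.2 and 36.9 CPM in chow, 37.5, 36.7 and 38.3 in STAM and 69.8, 39.8 and 57.2 in treated livers. The treated libraries lay above STAM, with library 5 close to it. The log2 fold change against STAM was 0.57 ± 0.18 (edgeR adjusted p = 0.178) and passed only without treated library 5 (0.76, edgeR adjusted p = 0.0406, range over 12 alternatives 0.0406 to 0.609). The annotation also holds a processed copy, Mpc1-ps, so reads of Mpc1 could be split between them.

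Ldha, which converts pyruvate to lactate and back, stood at 635, 712 and 665 CPM in chow, 779, 815 and 694 in STAM and 755, 737 and 850.3 in treated livers. The treated libraries lay above chow, the STAM libraries overlapped with both, and Ldha did not pass in any comparison. The pseudogenes Ldha-ps and Ldha-ps2 could share its reads. The 7 genes grouped as pyruvate entry, Ldha among them, all had a log2 fold change above 0 in treated livers against STAM. The values ran from 0.03 ± 0.11 for Ldha to 0.58, with a median of 0.22. The median of all tested genes there was -0.0007. None passed there by edgeR, 2 passed by DESeq2 and 2 by limma-voom (Mpc2 and Dlat in both), and 3 were higher at an unadjusted p under 0.05.

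**Figure D3:**
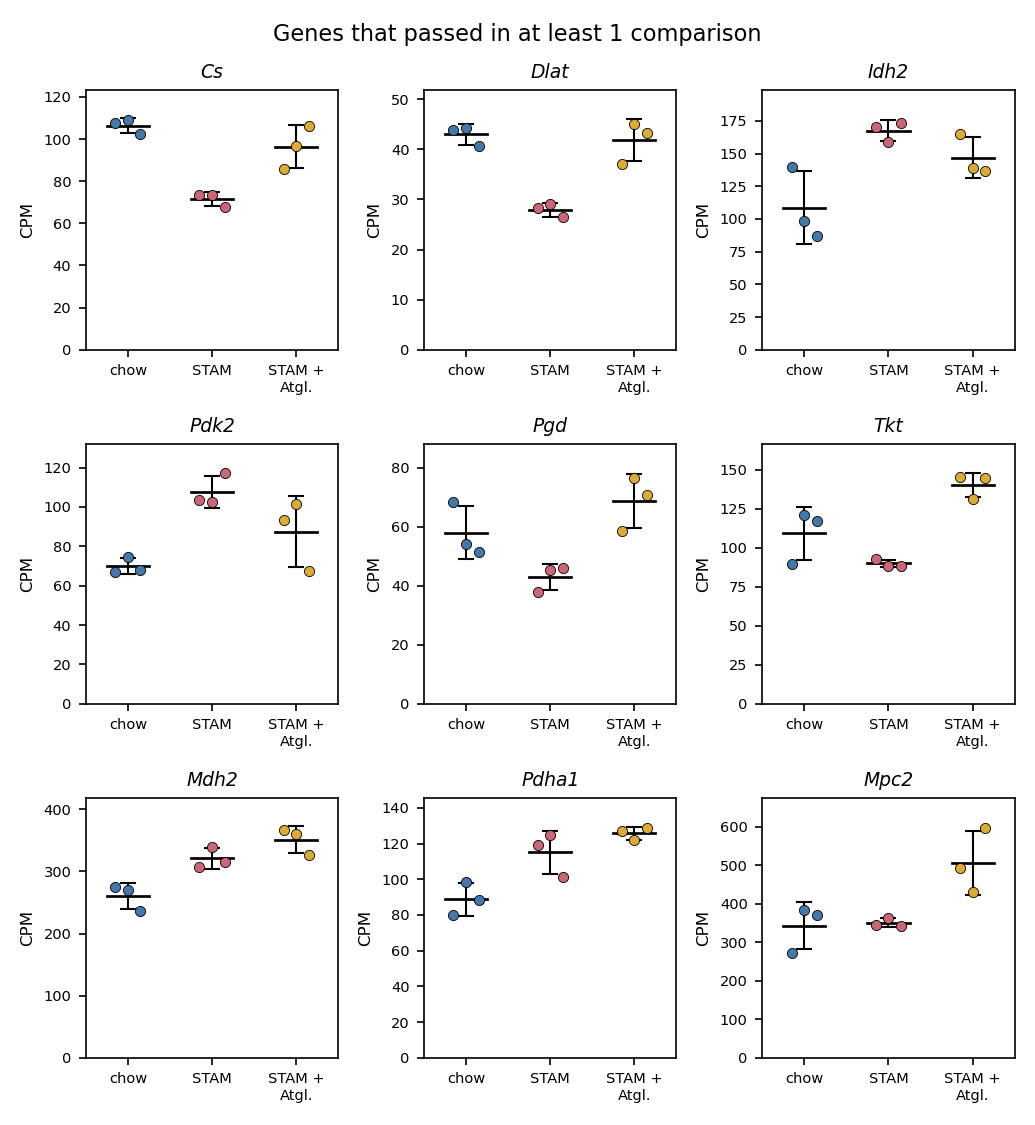
Level in CPM of the 9 genes that passed in at least 1 comparison, 1 panel a gene with its axis starting at 0. Points are libraries, the line is the group mean and the bar is 1 SD (n = 3, "Atgl." stands for Atglistatin). Cs and Dlat have their lowest libraries in STAM, Tkt, Pgd and Mpc2 have their highest means in STAM + Atglistatin, and chow library 7 is the high chow point of Idh2.

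Among the switches of pyruvate dehydrogenase, Pdk2, a kinase that turns the complex off and is abundant in liver (chromosome 11, 95026258 to 95041354, minus strand), was the only gene that passed. It stood at 67.1, 74.7 and 68.1 CPM in chow, 103, 102 and 117 in STAM and 93.5, 102 and 67.2 in treated livers. Every STAM library was above every chow library, and treated library 6 lay at the chow level while libraries 4 and 5 did not. Pdk2 rose 1.54-fold in STAM against chow (log2 fold change 0.62 ± 0.15, edgeR adjusted p = 0.0236). It did not pass without chow library 9 or STAM library 1 or 2 or 3 (edgeR adjusted p = 0.0601 to 0.109), in a range of 0.00218 to 0.109 over 12 alternatives. The antisense gene Gm11513 overlaps Pdk2, and without knowledge of strand their reads cannot be told apart.

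Pdk4, the kinase known as a target of PPARa and a marker of fasting, was near the floor of detection. It had 40, 5 and 8 counts in chow, 9, 12 and 14 in STAM and 9, 14 and 48 in treated livers, which correspond to 4.12, 0.603 and 1.18 CPM in chow, 0.995, 1.42 and 1.68 in STAM and 0.903, 1.45 and 5.19 in treated livers. Chow library 7 and treated library 6 were high and the other 7 libraries were at 0.603 to 1.68 CPM, so the groups overlapped. The log2 fold change was -0.55 ± 0.81 in STAM against chow, 0.87 ± 0.80 in treated livers against STAM and 0.33 ± 0.78 in treated livers against chow, with edgeR adjusted p of 0.844, 0.819 and 0.913. The sign followed single libraries: the first was 0.62 without chow library 7, and without treated library 6 the second was -0.21 and the third -0.75. None of the 3 passed under any of the 12 alternatives.

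Pdk1, another kinase of the complex, stood at 30.5, 67.6 and 64.6 CPM in chow, 39.3, 32.7 and 46.1 in STAM and 69.4, 45.1 and 58.3 in treated livers. Chow library 7 was the lowest of all 9 libraries and the other 2 chow libraries were above all of STAM. The log2 fold change in STAM against chow was -0.46 ± 0.24 (edgeR adjusted p = 0.411), and without chow library 7 it was -0.75 and passed (edgeR adjusted p = 0.0161, range over 12 alternatives 0.0161 to 0.794). The phosphatases, which switch the complex on, did not pass: Pdp2 ran from 71.4 to 121 CPM over the 9 libraries, and Pdp1, with few counts, from 0.104 to 1.84. None of the 5 switch genes passed in treated livers against STAM or against chow, by any of the 3 tools, and 1 was higher at an unadjusted p under 0.05 in each.

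In the pentose phosphate pathway, Pgd and Tkt rose with Atglistatin. Pgd, phosphogluconate dehydrogenase, the last NADPH-making step of the oxidative arm (chromosome 4, 149149991 to 149166771, minus strand), stood at 68.2, 54.0 and 51.6 CPM in chow, 37.9, 45.2 and 45.9 in STAM and 58.6, 76.6 and 70.9 in treated livers. The STAM libraries were below all 6 others, and the treated libraries overlapped with chow. Pgd rose 1.60-fold in treated livers against STAM (log2 fold change 0.68 ± 0.16, edgeR adjusted p = 0.0299). This call was lost without STAM library 1 or 2 or 3 or treated library 5 or 6 (edgeR adjusted p = 0.0643 to 0.221), and when scaled by library totals (0.0513), in a range of 0.00363 to 0.221 over 12 alternatives.

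Tkt, transketolase, which moves 2-carbon units between sugar phosphates in the non-oxidative arm (chromosome 14, 30548359 to 30574720, plus strand), stood at 89.8, 121 and 117 CPM in chow, 92.8, 88.4 and 88.6 in STAM and 145, 131 and 145 in treated livers. The treated libraries were above all 6 others, and STAM overlapped with the lowest chow library, 7. Tkt rose 1.56-fold in treated livers against STAM (log2 fold change 0.64 ± 0.13, edgeR adjusted p = 0.0129). The call was lost without STAM library 1 or 2 or 3 or treated library 4 (edgeR adjusted p = 0.0585 to 0.0866), in a range of 0.000574 to 0.0866 over 12 alternatives. Against chow the log2 fold change was 0.36 ± 0.13 (edgeR adjusted p = 0.174) and passed only with library totals (range over 12 alternatives 0.0437 to 0.373). The microRNA gene Mir3076 lies inside Tkt on the same strand.

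G6pdx, glucose-6-phosphate dehydrogenase, the entry enzyme of the pathway (chromosome X, 74409483 to 74429194, minus strand), had few counts: 36, 40 and 60 in chow, 25, 27 and 17 in STAM and 45, 57 and 29 in treated livers. These are 3.71, 4.82 and 8.87 CPM in chow, 2.76, 3.19 and 2.04 in STAM and 4.52, 5.91 and 3.14 in treated livers. Every STAM library was below every chow library, chow library 9 was far above the others, and treated library 6 fell within the STAM range. The log2 fold change was -1.10 ± 0.45 in STAM against chow, 0.76 ± 0.45 in treated livers against STAM and -0.35 ± 0.43 in treated livers against chow, with edgeR adjusted p of 0.235, 0.631 and 0.799. The last turned to 0.09 without chow library 9, and none passed under any of the 12 alternatives. Ikbkg overlaps G6pdx on the other strand, and the counting was not stated to use strand.

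Pgls, the lactonase between G6pdx and Pgd, ran from 83.6 to 94.1 CPM in chow, 115 to 119 in STAM and 94.9 to 111 in treated livers. The 3 groups did not overlap with one another, and STAM was the highest, whereas the means of G6pdx and Pgd were lowest there. Its log2 fold change in STAM against chow was 0.40 ± 0.12 (edgeR adjusted p = 0.0861), which passed with library totals, by DESeq2 and by limma-voom (range over 12 alternatives 0.0233 to 0.256). Fam129c overlaps Pgls on the same strand.

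Taldo1, transaldolase, stood at 141, 159 and 137 CPM in chow, 151, 137 and 142 in STAM and 160.3, 155 and 146 in treated livers, and the groups overlapped. Rpia, ribose-5-phosphate isomerase, ran from 9.06 to 11.7 CPM in chow, 3.78 to 7.96 in STAM and 5.22 to 18.9 in treated livers, and Rpe, its epimerase counterpart, overlapped between all groups. In STAM against chow none of the 7 pentose phosphate genes passed by edgeR, Pgls passed by DESeq2 and limma-voom, and 1 was higher and 2 lower at an unadjusted p under 0.05. In treated livers against STAM the 7 had a median log2 fold change of 0.64, with 2 passing and 6 above 0. This median is the value of Tkt. Above it stood Pgd, which passed, and G6pdx (0.76 ± 0.45) and Rpia (0.68 ± 0.41), which had few counts and did not pass. Below it were Taldo1 (0.10), Rpe (0.06) and Pgls (-0.16). None of the 7 passed in treated livers against chow by any of the 3 tools, and 1 was higher at an unadjusted p under 0.05.

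**Figure D4:**
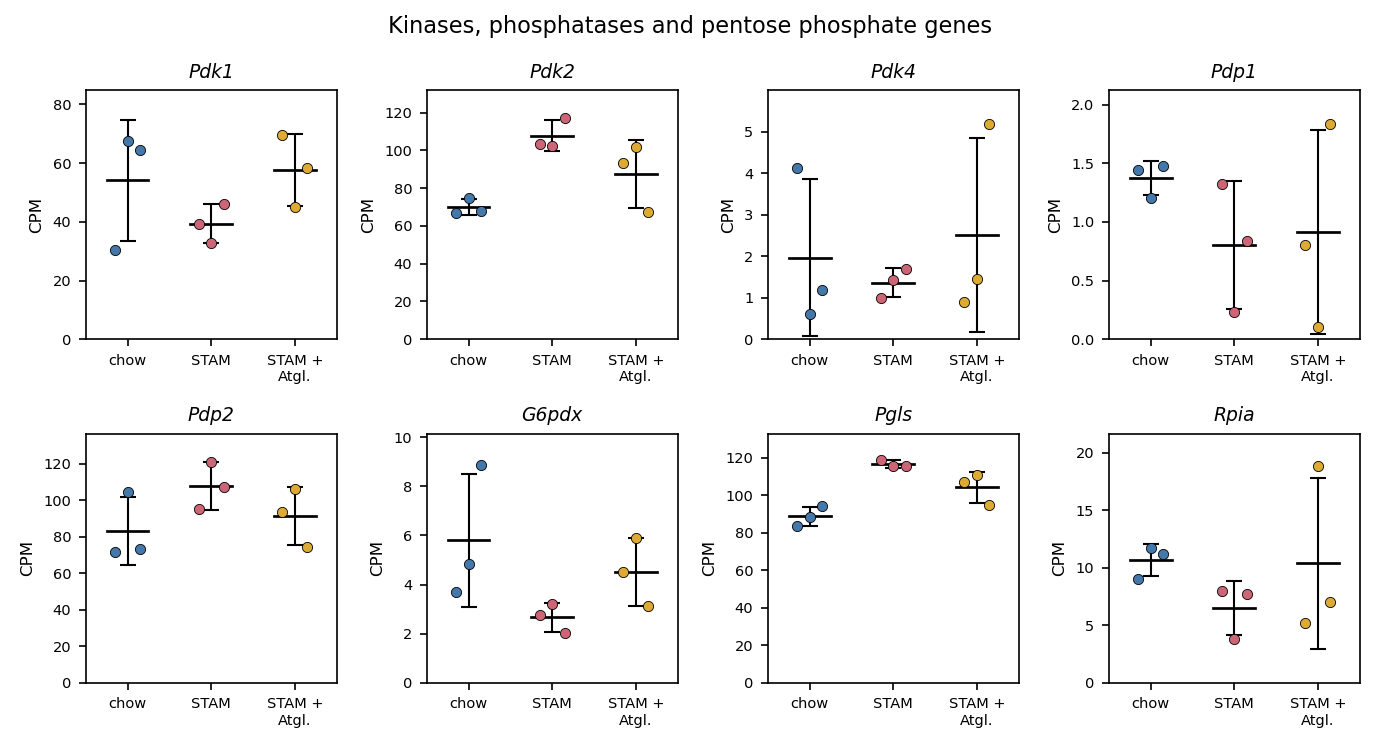
Level in CPM of the kinases Pdk1, Pdk2 and Pdk4, the phosphatases Pdp1 and Pdp2, and the pentose phosphate genes G6pdx, Pgls and Rpia, 1 panel a gene with its axis starting at 0. Points are libraries, the line is the group mean and the bar is 1 SD (n = 3). Pdk4 has 1 high chow library (4.12 CPM) and 1 high treated library (5.19 CPM), G6pdx is lowest in STAM, and Pgls and Pdk2 are highest there.

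How far libraries of one group differed varied between the members and groups. The coefficient of variation of CPM had a median over the 35 genes of 13.2% in chow, 8.14% in STAM and 11.2% in treated livers. It was lowest for Suclg1 in chow (2.70%), for Pgls in STAM (1.62%) and for Pdhb in treated livers (1.74%). It was highest for Pdk4 in chow (95.8%) and for Pdp1 in STAM (68.2%) and in treated livers (95.4%).

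Genes outside the 35 that work beside them were counted as well. Of 37 other TCA and pyruvate genes tested, 2 rose and 2 fell in STAM against chow. Me1, the cytosolic malic enzyme that makes NADPH while turning malate into pyruvate, fell from 150.4 ± 40.2 to 76.9 ± 4.50 CPM (log2 fold change -0.97 ± 0.17, edgeR adjusted p = 0.00256). Slc25a1, which carries citrate out of mitochondria, fell from 132 ± 10.8 to 80.8 ± 4.05 CPM (-0.71 ± 0.14, edgeR adjusted p = 0.00653). Scaled by library totals, 5 rose and 2 fell, and with no low-count filter 4 rose. The number that rose was 0 without STAM library 3, and 1 without chow library 8 or STAM library 1 or 2.

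With Atglistatin, 2 of the 37 rose and 1 fell against STAM. Me1 reached 191 ± 29.2 CPM (1.31 ± 0.18, edgeR adjusted p = 0.000219), and Slc16a7, a transporter of pyruvate and lactate, rose from 39.1 ± 4.33 to 63.8 ± 3.06 CPM (0.71 ± 0.16, edgeR adjusted p = 0.0254). Got1, the cytosolic aspartate aminotransferase, fell from 297 ± 14.1 to 198 ± 19.3 CPM (-0.59 ± 0.14, edgeR adjusted p = 0.0446). The fall was lost when any 1 of the 6 libraries compared was left out and when scaled by library totals, while 2 genes fell with no low-count filter, by limma-voom and in a fit to the 2 groups alone. Only 1 gene rose without STAM library 1 or 2 or treated library 4 or 5. In treated livers against chow 2 rose, among them Slc16a7 (1.12 ± 0.16, edgeR adjusted p = 0.000317), and only 1 passed without chow library 7, 8 or 9 or treated library 5 or 6.

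Of 14 other pentose phosphate and NADPH genes tested, from a list that shares Me1 and Nnt with the last, 2 fell in STAM against chow. Besides Me1 this was Aldh1l1, the folate enzyme that makes NADPH in the cytosol, which fell from 429 ± 56.2 to 249 ± 39.1 CPM (-0.78 ± 0.14, edgeR adjusted p = 0.00262). Me1 alone rose in treated livers against STAM, and Aldh1l1 alone fell in treated livers against chow (-0.65 ± 0.14, edgeR adjusted p = 0.0125). The latter was lost without chow library 8 or treated library 5 or 6.

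Of 23 glycolysis genes tested, 3 fell in STAM against chow, among them Pklr, the liver pyruvate kinase (-0.83 ± 0.18, edgeR adjusted p = 0.00932), and Aldoc, an aldolase (-0.81 ± 0.20, edgeR adjusted p = 0.0239). The number was 1 without chow library 8 or 9 or STAM library 2 or 3. In treated livers against STAM 3 rose, among them Pklr (0.71 ± 0.17, edgeR adjusted p = 0.0442) and Gpi1, glucose-6-phosphate isomerase (0.70 ± 0.15, edgeR adjusted p = 0.0130). The count was 0 without STAM library 1 or 2 or treated library 5, and 1 without treated library 4 or 6. Compared with chow, 2 rose in treated livers, among them Gpi1 (0.63 ± 0.15, edgeR adjusted p = 0.0173), and Pfkfb3, a regulator of glycolytic flux, fell (-1.34 ± 0.35, edgeR adjusted p = 0.0343). Without chow library 8 or treated library 4 or 5 only 1 rose, and the fall of Pfkfb3 was lost without any of chow libraries 8 and 9 and the 3 treated libraries, and in a fit to the 2 groups alone.

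The NRF2 targets, genes of antioxidant and detoxifying defence, were also counted. Of 14 tested, 1 fell in STAM against chow, Gstm1, a glutathione transferase, from 1860.1 ± 411 to 933 ± 119.8 CPM (edgeR adjusted p = 0.000785). There 0 rose (1 at an unadjusted p under 0.05), but 5 rose without chow library 7. With Atglistatin 4 rose against STAM, among them Nqo1, a quinone reductase, from 6.15 ± 1.76 to 17.7 ± 2.51 CPM (1.53 ± 0.36, edgeR adjusted p = 0.0349), Ephx1, an epoxide hydrolase (0.73 ± 0.15, edgeR adjusted p = 0.0150), and Gstm1 (1.46 ± 0.16, edgeR adjusted p = 2.32e-05). The number was 1 without STAM library 1 or 2 or treated library 4 or 5, and 2 without treated library 6. In treated livers against chow 4 rose, and 9 did without chow library 7.

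Further lists were counted for reference. Of 14 fatty acid synthesis genes, a list that also holds Me1, 9 fell in STAM against chow and 10 rose in treated livers against STAM. In treated livers against chow, 1 rose and 3 fell. Acly, which splits citrate in the cytosol, rose with Atglistatin from 123 ± 27.2 to 285 ± 30.5 CPM (1.21 ± 0.16, edgeR adjusted p = 0.000143). Of 25 PPARa targets, 13 rose in STAM against chow and 11 in treated livers against chow, while 0 passed in treated livers against STAM by edgeR, DESeq2 or limma-voom (1 higher and 2 lower at an unadjusted p under 0.05). Of 28 genes of general mitochondrial function, 1 rose in STAM against chow, Mfn2 (0.57 ± 0.13, edgeR adjusted p = 0.0155), which was lost when any 1 STAM library was left out. None of the 28 passed in the other comparisons by any of the 3 tools, and at an unadjusted p under 0.05 there were 0 in treated livers against STAM and 4 higher in treated livers against chow. Scaled by library totals, 2 rose in treated livers against chow. Median log2 fold changes in STAM against chow, treated livers against STAM and treated livers against chow were 0.14, -0.09 and 0.03 for the other TCA and pyruvate genes and -0.17, 0.06 and 0.02 for the other pentose phosphate and NADPH genes. They were 0.54, -0.02 and 0.43 for the PPARa targets and -0.11, 0.46 and 0.35 for the NRF2 targets. They were -0.07, 0.13 and -0.07 for glycolysis, -0.89, 1.05 and 0.03 for fatty acid synthesis, and 0.08, 0.03 and 0.10 for the mitochondrial genes.

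The authors' deposited table gives an adjusted p under 0.05 to 5 members in chow against STAM (Cs, Idh2, Dlat, Pdk2 and Pgls), of 627 genes in all. For treated livers against STAM, 4 members pass in the authors' deposited table (Mpc2, Dlat, Pgd and Tkt), of 282 genes. Against chow, 3 treated-liver calls among the members stand in the authors' deposited table (Mdh2, Mpc2 and Pdha1), of 625 genes. The number of genes the authors tested was not counted here, so these counts have no share of all genes beside them.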

How the data were processed

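Sample titles and the series design text gave the groups, because the treatment tags of the chow and STAM samples contradict both. The tags of the chow samples name streptozotocin, and those of the STAM samples name no streptozotocin and Atglistatin. Per the submitters' processing notes, reads were aligned with STAR to GRCm38. How reads were counted (tool, annotation, strand, reads with several matches) is not given in the sources used here. Deposited were the authors' raw read counts per gene, and the authors' own log2 fold changes and p-values. The 7 ribosomal RNA entries (0.260 to 0.529% of counts) were left out. Positions and overlaps come from GENCODE M21 (GRCm38), and promoter windows from RefSeq (GRCm38.p6).

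Counts were fitted in R 4.3.3 with edgeR 4.0.16 (TMM, filterByExpr on the groups, group means over all 9 libraries, quasi-likelihood tests of 3 contrasts, Benjamini-Hochberg adjustment over 12660 genes). The common biological coefficient of variation was 0.236. The SE is the absolute log2 fold change divided by the square root of F. The fit was tested on simulated data. No replicate pair agreed within sampling noise (chi-square per degree of freedom of 7.71 to 21.2).

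The members and gene lists were chosen with earlier results of these data known. Members that passed, or that have a central role, are given by library, and of each other list up to 3 passing genes with the smallest p. A few of those genes are not reported here. The alternatives, 12 per comparison, were DESeq2 size factors or library totals in edgeR, DESeq2 1.42.0, limma-voom with sample weights (limma 3.58.1), no filter on low counts, the 2 groups alone, and leaving out each of the 6 libraries.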

Additional observations from a re-analysis of the deposited data

How the results depend on the processing

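Counts of members that passed rested on single libraries and on the setting. In STAM against chow 2 rose, but 5 did with library totals and 4 by limma-voom, and 0 to 2 when single libraries were left out. There 2 fell, but 1 did with library totals, and 0 to 3 when single libraries were left out. With Atglistatin against STAM 2 rose, but 1 did with library totals, 4 by DESeq2 and 4 by limma-voom, and 0 to 2 when single libraries were left out. Treated against chow, 3 rose, but 0 did in a fit to the 2 groups alone, and 0 to 2 when single libraries were left out. No member fell in the last 2 comparisons under any of the 12 alternatives. The fold changes of the 9 called gene and comparison pairs kept their sign under all 12. Of the pairs that did not pass, Pdk4 changed sign in STAM against chow by limma-voom (0.037) and ran from -0.97 to 0.62 when single libraries were left out. With Atglistatin against STAM Pdk4 ran from -0.21 to 1.27. Treated against chow, Pdk4 ran from -0.75 to 1.49, with -0.10 without chow library 8, and G6pdx from -0.59 to 0.085. Over all genes, the 499 calls in STAM against chow were 291 to 724 when single libraries were left out, the 226 in STAM + Atglistatin against STAM were 131 to 191, and 392 with no low-count filter, and the 516 in STAM + Atglistatin against chow were 309 to 757. Scaled by library totals, the median log2 fold change of all genes was 0.0856 in STAM against chow and 0.0778 in STAM + Atglistatin against chow, where it was -0.0014 and -0.0041 with TMM. Leaving out a library also leaves fewer samples to estimate the spread. No paired analysis was possible because the groups share no replicate numbers. Of the members, 4 had under 100 counts in some library (Pdk4, Pdp1, G6pdx and Rpia), and their SE was 0.40 to 0.92, against at most 0.24 for the other 31.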
